A study of Homo sapiens with 12 samples.

Results

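The unfolded protein response and endoplasmic reticulum (ER) folding genes were taken as a list of 42 symbols, read from the gene symbol column of the deposited tables. All 42 were present among 78932 table rows, and 41 passed the filter on low counts. DERL3, a derlin of the ER membrane, did not pass. Levels of genes in CPM are counts scaled to the library's total and its TMM normalization factor. DERL3 had 0 to 0.451 CPM in CEL, 0.0963 to 0.148 in CE, 0.0473 to 0.266 in LPS and 0.228 to 0.706 in NC libraries. The members comprise 7 chaperones and their helpers, 4 J-domain proteins, 6 enzymes of disulfide formation, 2 secreted stress proteins, 6 sensors and transcription factors, 10 genes of ER-associated degradation, and 7 genes of translocation and ER exit.

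All libraries came from THP-1, a monocytic leukaemia line of human origin that is widely used as a monocyte model, with 3 libraries in each of 4 groups. The CEL group received LPS, ATP, CsA (cyclosporin A, a calcineurin inhibitor), Eltrombopag (a thrombopoietin receptor agonist that also binds iron) and Luspatercept (a ligand trap for the TGF-beta superfamily). The CE group received LPS, ATP, CsA and Eltrombopag. The LPS group received LPS and ATP without a drug, as the study's model of pyroptosis, an inflammatory form of cell death. The NC group was untreated. The sources used here give no doses or times. CsA and Eltrombopag were always given together, so their separate effects cannot be told apart.

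Proteins that enter the ER are folded there by chaperones and by enzymes that form disulfide bonds, and those that fail to fold are exported and degraded. When misfolded protein accumulates, the sensors IRE1 (ERN1), PERK (EIF2AK3) and ATF6 switch on the unfolded protein response. ATF6 and spliced XBP1 raise chaperone and degradation genes through short promoter elements, PERK slows translation and leads to ATF4 and DDIT3, and secretory and activated immune cells rely on these branches when they make cytokines.

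The promoter elements show which members carry a known binding motif of these factors. RefSeq promoter windows of 300 bases on GRCh38.p14 were found for 38 of the 42 genes. They run from 250 bases before to 50 after a RefSeq start of the gene. The GENCODE gene annotation begins DNAJB9 upstream of its window, and CANX and PDIA6 upstream of the windows with their matches. Starts outside RefSeq's were not searched. Both strands were searched for the ER stress response element ERSE (CCAAT, then any 9 bases, then CCACG), for ERSE-II (ATTGG, any 1 base, CCACG), for the core of the XBP1 element (TGACGTGG, UPRE) and for the core of the amino acid response element (TTGCATCA, AARE). ERSE occurred in 8 of the 38 genes, which is 21.1%, against 0.0916% of all 27305 genes with a window. ERSE-II occurred in 3 of 38, which is 7.89%, against 0.0696% of all such genes. The UPRE core occurred in DNAJC10 and HYOU1, against 0.927% of all such genes, and in HYOU1 it overlapped an ERSE-II. The AARE core occurred in HERPUD1, against 1.08% of all such genes. Such a match describes the letters only. Only exact matches were counted, so a gene without a match can still hold a copy with a changed letter. The members were listed as genes of this response, so higher shares of its elements among them are no test.

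Promoters of 4 genes are printed 5′ to 3′ on the strand of the gene, since the genes behind them moved in different directions. Capitals mark the motif matches. HSPA5 (chr9:125241294-125241593, minus strand) holds an ERSE. SDF2L1 (chr22:21642052-21642351, plus strand) holds an ERSE-II on the other strand. HERPUD1 (chr16:56931892-56932191, plus strand) holds an AARE core and then an ERSE-II. DNAJB9 (chr7:108569624-108569923, plus strand) holds none of the searched letters.
HSPA5: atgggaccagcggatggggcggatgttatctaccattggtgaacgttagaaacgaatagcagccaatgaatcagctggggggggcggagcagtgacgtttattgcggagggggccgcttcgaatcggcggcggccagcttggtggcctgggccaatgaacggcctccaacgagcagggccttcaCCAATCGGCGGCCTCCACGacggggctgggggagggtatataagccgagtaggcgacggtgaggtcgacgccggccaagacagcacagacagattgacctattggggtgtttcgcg
SDF2L1: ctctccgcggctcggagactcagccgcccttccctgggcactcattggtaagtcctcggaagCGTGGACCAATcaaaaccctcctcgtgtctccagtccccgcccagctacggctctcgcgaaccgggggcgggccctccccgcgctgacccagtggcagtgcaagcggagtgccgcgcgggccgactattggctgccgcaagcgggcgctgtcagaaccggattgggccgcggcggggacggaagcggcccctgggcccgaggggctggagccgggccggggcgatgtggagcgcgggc
HERPUD1: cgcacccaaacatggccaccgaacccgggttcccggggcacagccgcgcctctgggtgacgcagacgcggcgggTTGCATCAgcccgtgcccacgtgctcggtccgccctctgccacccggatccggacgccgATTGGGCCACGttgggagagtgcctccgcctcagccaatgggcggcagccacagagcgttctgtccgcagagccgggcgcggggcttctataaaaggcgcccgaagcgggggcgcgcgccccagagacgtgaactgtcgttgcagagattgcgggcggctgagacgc
DNAJB9: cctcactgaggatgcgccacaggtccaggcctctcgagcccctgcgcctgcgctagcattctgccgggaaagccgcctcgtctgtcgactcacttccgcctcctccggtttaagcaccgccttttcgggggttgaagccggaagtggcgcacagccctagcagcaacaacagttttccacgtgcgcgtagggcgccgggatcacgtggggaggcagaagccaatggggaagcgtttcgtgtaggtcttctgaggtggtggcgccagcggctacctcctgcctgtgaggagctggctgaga

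The libraries held 17737213 to 23183429 estimated counts, and 21775 to 26123 genes had a count. NC 3 and LPS 1 stood apart in 5.8S ribosomal RNA, which took 10.6% and 9.67% of their TPM (a level per transcript length), against at most 0.0433% in each of the other libraries. The members summed to 5554 TPM in LPS 1 and 4493 in NC 3, the lowest of their groups, while their CPM sums of 12553 and 11376 lay between those of the other libraries of each group. Libraries are therefore compared in CPM scaled with TMM factors, and TPM serves to compare levels between genes. Within groups, the lowest correlation of log2 CPM across genes was that of CE 1 with CE 2 (r = 0.961). Levels of cell type markers are given in CPM without TMM factors. All 10 markers of the monocytic line were in the table. Their summed level was 324 to 378 CPM in CEL, 341 to 518 in CE, 649 to 755 in LPS and 826 to 912 in NC libraries. The markers did not move alike. In the order CEL, CE, LPS and NC, LYZ averaged 19.6, 26, 148 and 624 CPM, FCGR1A 21.8, 34.5, 204 and 104, and CD14 2.61, 6.04, 46.1 and 0.913. CD68 averaged 175, 164, 162 and 73 and CSF1R 43.3, 64.2, 49 and 7.61 CPM in that order, while MPO and CEBPA averaged at most 1.49 CPM in any group. Plasma cells are rich in these folding genes, and their 4 markers summed to at most 0.486 CPM in any library. Markers of erythroid and of stromal and epithelial cells summed to at most 1.12 and 1.16 CPM, and those of lymphocytes to at most 7.44 CPM, led by NKG7. The part of these marker differences in the results was not tested. In such bulk libraries fewer cells of a type and less RNA per cell cannot be told apart.

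**Figure D1:**
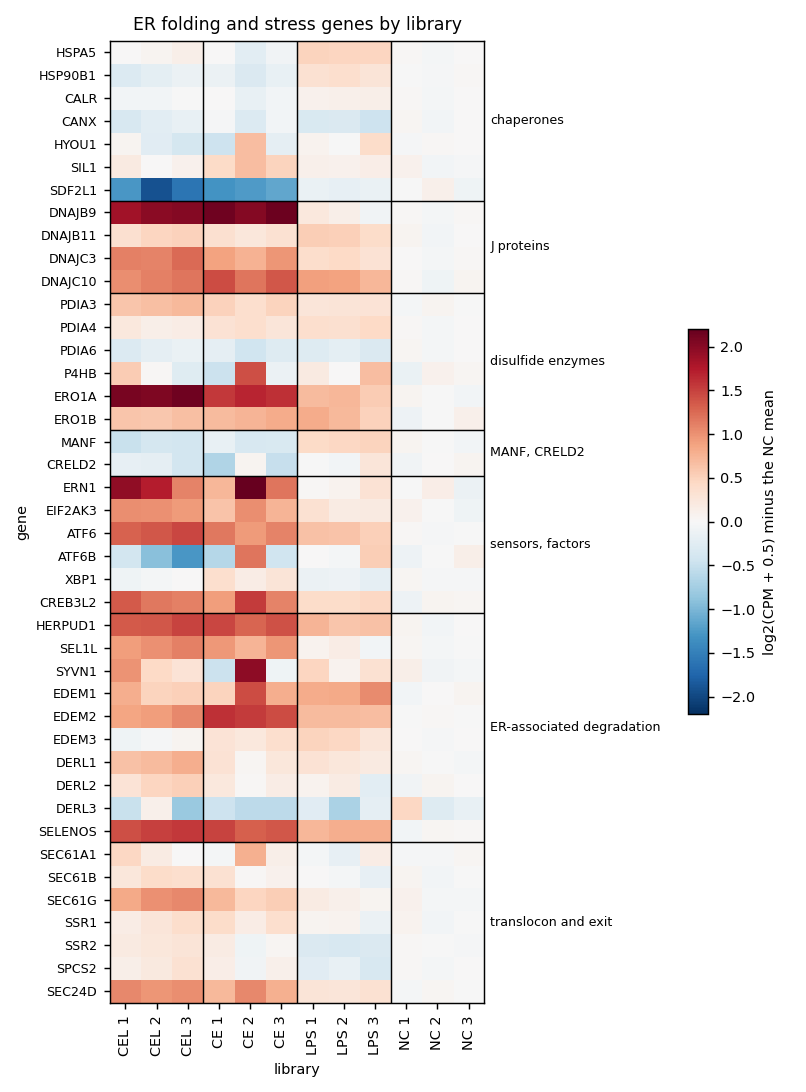
Level of each of the 42 members in each library, as log2(CPM + 0.5) minus the mean of the NC libraries, with genes grouped by role and libraries ordered CEL, CE, LPS, NC. DNAJB9 and ERO1A are high and SDF2L1 is low in every CEL and CE library, and CE 2 stands out for P4HB, ATF6B and SYVN1.

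Per length, the chaperones were the most abundant class. CALR, a lectin chaperone of glycoproteins, had 1092 ± 29.8 TPM in CEL, 1028 ± 8.08 in CE, 1155 ± 230 in LPS and 961 ± 185 in NC libraries (SD, n = 3 each). HSP90B1, the ER form of HSP90, had 831 ± 17.1, 800.4 ± 21.4, 1145 ± 208 and 821 ± 147 TPM in the same order. HSPA5 (BiP), the main ER chaperone that also holds the sensors inactive, had 515 ± 7.67, 434 ± 10.2, 615 ± 117 and 398 ± 81.9 TPM. Among the tested members, ERN1 and SYVN1 lay at the other end, with mean levels of 0.387 to 1.34 TPM and 0.383 to 0.697 TPM over the groups. DERL3, which was not tested, averaged 0.437 TPM in CEL, 0.247 in CE, 0.307 in LPS and 0.91 in NC libraries. All 42 members together took 0.777% to 0.797% of TPM in CEL, 0.702% to 0.742% in CE, 0.555% to 0.799% in LPS and 0.449% to 0.646% in NC libraries. The low ends in LPS and NC are LPS 1 and NC 3, so these shares do not compare groups. In CPM, the members summed to 12490 ± 375 in CEL, 12410 ± 217 in CE, 12530 ± 119 in LPS and 11290 ± 195 in NC libraries.

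The model was first compared with untreated cells. In LPS with ATP, most J proteins, disulfide enzymes and degradation genes rose, each by less than 2-fold, and so did HSPA5, while the disulfide enzyme PDIA6 fell. Of the 41 tested members, 19 rose and 5 fell, where 22.4% of all 14065 tested genes rose and 23.5% fell, 45.9% in either direction (edgeR quasi-likelihood F-test, adjusted p under 0.05). The median log2 change was 0.25 over the members and -0.01 over all genes. The groups did not overlap for 27 members, where 62.5% of all genes did not.

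By role, 3 of 4 J proteins, 4 of 6 disulfide enzymes and 6 of 9 tested degradation genes rose. Over all tested genes, 22.4% rose. The rise of the degradation gene DERL1 (0.25 ± 0.07, adjusted p = 0.0115) was lost under 7 of 16 alternatives. Among them were leaving out NC 3 (adjusted p = 0.13), LPS 2 (0.0925), or NC 3 and LPS 1 together. EDEM1, which marks misfolded glycoproteins for degradation, had 207, 209 and 240.1 CPM in LPS libraries, against 112, 117 and 121 in NC libraries. The log2 change was 0.90 ± 0.19 (adjusted p = 0.00259), and the groups did not overlap. DNAJC10, a J protein that reduces disulfide bonds, had 254, 251 and 226 CPM in LPS, against 139, 127 and 141 in NC libraries, a change of 0.84 ± 0.07 (adjusted p = 2.59e-06). SELENOS, a selenoprotein of the degradation complex, rose by 0.79 ± 0.06 and EDEM2, another protein of mannose trimming, by 0.71 ± 0.06 on the log2 scale. HERPUD1, which organises the degradation complex, had 58.2, 53.0 and 54.4 CPM in LPS and 36.0, 32.9 and 34.5 in NC libraries. It rose by 0.68 ± 0.07 (adjusted p = 7.08e-06).

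HSPA5 had 1556, 1549.7 and 1546 CPM in LPS libraries, against 1132, 1077 and 1123 in NC libraries. All LPS libraries lay above all NC libraries, and the log2 change was 0.48 ± 0.06 (adjusted p = 7.51e-05). HSP90B1 rose by 0.33 ± 0.06 (adjusted p = 0.00141), and this call was lost with NC 3 and LPS 1 both left out (adjusted p = 0.0795). The HSP90B1 call was also lost with limma on log2(TPM + 1) and on log2(TPM + 0.1). The largest falls were small: CANX, the membrane-bound lectin chaperone, by 0.37 ± 0.08, SSR2 of the translocon by 0.33 ± 0.06, the disulfide isomerase PDIA6 by 0.27 ± 0.06, and the signal peptidase subunit SPCS2 by 0.26 ± 0.07 on the log2 scale. None of the 4 falls passed with no filter on low counts (adjusted p of 0.0875 to 0.311). That of SPCS2 was also lost without NC 1, NC 3 or LPS 3 (0.0544, 0.0538 and 0.0627). The PDIA6 and SPCS2 calls were lost with NC 3 and LPS 1 both left out (adjusted p of 0.0953 and 0.125).

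The sensors differed among themselves. ATF6, the membrane-bound factor cleaved under stress, had 186, 184 and 173 CPM in LPS and 121, 117 and 119 in NC libraries, and rose by 0.60 ± 0.06 (adjusted p = 1.32e-05). XBP1 fell by 0.15 ± 0.05 (adjusted p = 0.0414), a call lost when any 1 of the 6 libraries was left out (adjusted p of 0.0724 to 0.156) and with the replicate block (0.0647). These gene-level counts do not separate spliced from unspliced XBP1. ERN1 (log2 change 0.17 ± 0.39), EIF2AK3 (0.25 ± 0.10) and DNAJB9 (0.11 ± 0.08), a J protein that represses IRE1, did not pass the test. DNAJB9 passed without LPS 3 (adjusted p = 0.0443), and EIF2AK3 passed with RLE factors (0.0421) and with only the 2 groups in the fit (0.0252).

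The drugs CsA and Eltrombopag were then set against the model. HSPA5 and HSP90B1 fell while DNAJB9 and ERO1A rose. By role, 3 of 4 J proteins, 2 of 6 disulfide enzymes, 5 of 6 sensors and factors, 4 of 9 tested degradation genes and 6 of 7 translocation and exit genes rose, while 4 of 7 chaperones fell and 2 rose. Of 41 members, 22 rose and 6 fell, where 28.8% of all genes rose and 20.7% fell, 49.6% in either direction, and the median log2 change was 0.31 over the members and 0.08 over all genes. Upper quartile factors moved the split to 17 higher and 11 lower, and so did scaling by library size alone. The groups did not overlap for 28 members, where 54.6% of all genes did not.

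DNAJB9 had 87.7, 80.8 and 89.5 CPM in CE libraries, against 23.1, 21.6 and 18.7 in LPS libraries. Every CE library was above every LPS library, and the change was 4.07-fold (log2 2.03 ± 0.08, adjusted p = 1.06e-08). ERN1 had 3.59, 11.1 and 5.11 CPM in CE and 2.01, 2.13 and 2.58 in LPS libraries. The CE libraries differed widely, with CE 2 the highest, and the log2 change of 1.56 ± 0.38 passed (adjusted p = 0.00509). It did not pass with limma on log2(TPM + 1) (adjusted p = 0.0725). ERO1A, the oxidase that feeds disulfide formation, had 155, 169 and 161 CPM in CE and 84.8, 86.9 and 76.9 in LPS libraries. Its rise was 0.96 ± 0.06 (adjusted p = 1.06e-07). PDIA3, the other disulfide enzyme that rose (0.18 ± 0.05, adjusted p = 0.0107), failed the threshold under 12 of 16 alternatives. Among them were leaving out LPS 1, LPS 2, CE 1 or CE 3 (adjusted p of 0.0506 to 0.161), and also DESeq2 and RLE factors. EDEM2 rose by 0.84 ± 0.06, SEL1L, the scaffold of the degradation ligase, by 0.84 ± 0.07 and HERPUD1 by 0.72 ± 0.07 on the log2 scale.

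Of the 7 chaperones and their helpers, HSPA5, HSP90B1, CALR and SDF2L1 fell, CANX (0.25 ± 0.08, adjusted p = 0.0258) and SIL1 (0.43 ± 0.09, adjusted p = 0.00148) rose, and HYOU1 did not pass. CANX failed the threshold under 14 of 16 alternatives, among them leaving out LPS 1, LPS 2, LPS 3, CE 1 or CE 3 (0.0566 to 0.207). SIL1 failed under 4 of 16 (adjusted p up to 0.0988). These were library size alone, no filter on low counts, and limma on log2(TPM + 1) and log2(TPM + 0.1). CALR fell by 0.18 ± 0.05 (adjusted p = 0.015) and failed under 8 of 16, among them leaving out LPS 2 (0.105) or CE 3 (0.077). HSPA5 had 1121, 950.4 and 1050.3 CPM in CE libraries, against 1556, 1549.7 and 1546 in LPS libraries. All 3 CE libraries lay below the LPS libraries and close to the NC range of 1077 to 1132 CPM. HSPA5 fell by 0.58 ± 0.06 on the log2 scale (adjusted p = 1.52e-05) and HSP90B1 by 0.53 ± 0.06 (adjusted p = 3.52e-05). The HSPA5 call was lost with limma on log2(TPM + 1) (adjusted p = 0.0563). SDF2L1, a BiP-associated protein, had 3.15, 3.32 and 3.61 CPM in CE and 7.66, 7.48 and 7.64 in LPS libraries, a fall of 1.17 ± 0.17 (adjusted p = 0.00013). MANF, a secreted ER stress protein, had 63.1, 55.7 and 56.2 CPM in CE and 95.4, 97.7 and 99.9 in LPS libraries, a fall of 0.74 ± 0.06. In CE libraries, the levels of SDF2L1 and MANF lay below the NC libraries as well as below the LPS libraries.

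Among the remaining sensors, XBP1 had 228, 197 and 213 CPM in CE and 159.8, 162 and 154 in LPS libraries and rose by 0.42 ± 0.05. EIF2AK3 rose by 0.58 ± 0.10 and ATF6 by 0.47 ± 0.06. The XBP1 and EIF2AK3 calls were lost with limma on log2(TPM + 1) (adjusted p of 0.0514 and 0.113). Of the 7 translocation and exit genes 6 rose, with log2 changes of 0.22 to 0.56 led by SEC24D, a cargo adaptor of COPII vesicles. SEC61B was the weakest (adjusted p = 0.0488), and its call was lost without LPS 2, LPS 3, CE 1 or CE 3 (adjusted p of 0.122 to 0.392) and with the replicate block. The SSR1 call was lost without CE 1 or CE 3 (0.0719 and 0.0737). Upper quartile factors lost SEC61B, SSR1 and SPCS2, and limma on log2(TPM + 1) lost every one of the 6 but SEC61G.

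CE 2 decided several members. P4HB, the classical disulfide isomerase, had 174, 643 and 221 CPM in CE libraries, against 275, 243 and 387 in LPS libraries. CE 2 alone was above the LPS range, and the log2 change of 0.20 ± 0.41 did not pass. HYOU1, a large chaperone of the HSP110 type, had 132, 292 and 159 CPM in CE, against 192, 181 and 241 in LPS libraries. ATF6B, a paralog of ATF6, had 20.3, 72.0 and 23.1 CPM in CE, against 31.5, 30.4 and 46.0 in LPS libraries. Without CE 2, the changes of HYOU1 (-0.48), ATF6B (-0.72) and the secreted protein CRELD2 (-0.67) passed, with adjusted p of 0.0155, 0.024 and 0.00111. The number of members that fell was then 9, against 6 with all libraries.

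**Figure D2:**
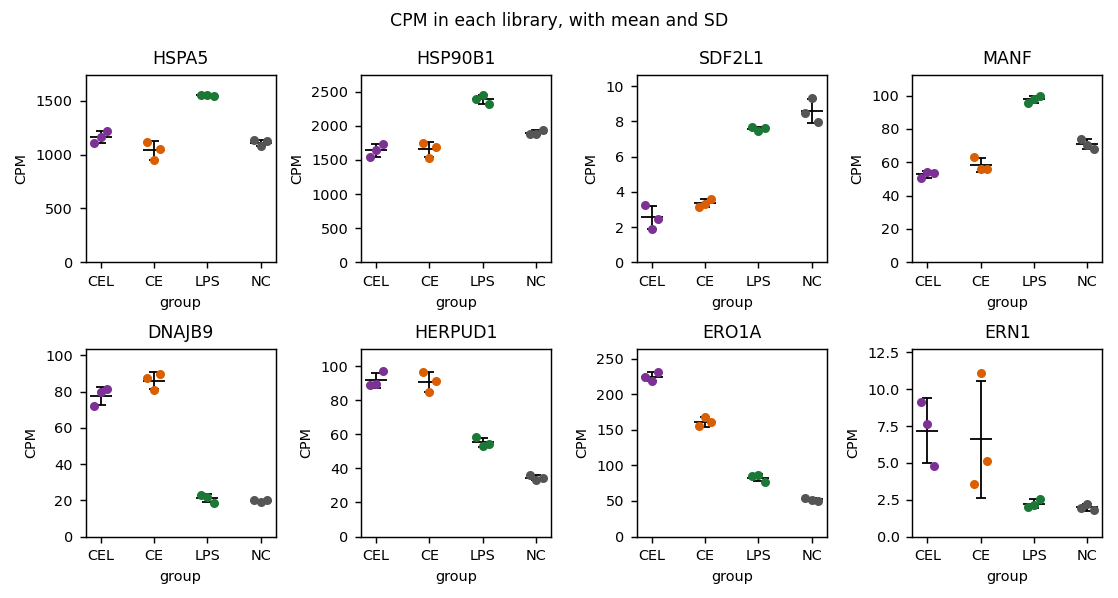
CPM of 8 members in each library, with the mean and SD as black bars (n = 3 each) and groups ordered CEL, CE, LPS, NC. HSPA5, HSP90B1 and MANF are highest in LPS, SDF2L1 is lower in CEL and CE than in LPS and NC, and DNAJB9, HERPUD1 and ERO1A are higher in CEL and CE than in LPS and NC.

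The 3 drugs together were compared with the same LPS libraries, so this comparison and the previous one share them. Of 41 members, 21 rose and 7 fell, where 28.7% of all genes rose and 27.2% fell, 55.9% in either direction. The medians were 0.26 over the members and -0.03 over all genes, and 32 members did not overlap, where 65.5% of all genes did not. Upper quartile factors gave 18 higher and 10 lower.

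DNAJB9 had 71.8, 79.7 and 81.4 CPM in CEL libraries, against 18.7 to 23.1 in LPS libraries, a rise of 1.88 ± 0.08 on the log2 scale (adjusted p = 9.87e-09). ERN1 had 9.13, 7.67 and 4.78 CPM in CEL and at most 2.58 in LPS libraries and rose by 1.68 ± 0.38 (adjusted p = 0.0027). ERO1A had 225, 219 and 231 CPM in CEL libraries, against 76.9 to 86.9 in LPS libraries, a rise of 1.44 ± 0.06. SEL1L rose by 0.95 ± 0.07, ATF6 by 0.78 ± 0.06, EIF2AK3 by 0.76 ± 0.10 and HERPUD1 by 0.73 ± 0.07. XBP1 had 164, 171 and 177 CPM in CEL and 154 to 162 in LPS libraries and did not pass (0.11 ± 0.05, adjusted p = 0.12).

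SDF2L1 had 3.25, 1.90 and 2.47 CPM in CEL and 7.48 to 7.66 in LPS libraries, a fall of 1.57 ± 0.17 (adjusted p = 1.11e-05). MANF had 50.5, 54.1 and 53.6 CPM in CEL and fell by 0.89 ± 0.06 (adjusted p = 2.46e-07). HSP90B1 fell by 0.54 ± 0.06 and EDEM3, another protein of mannose trimming, by 0.43 ± 0.06. HSPA5 had 1111, 1163 and 1219.8 CPM in CEL libraries and fell by 0.41 ± 0.06 (adjusted p = 0.000157). The calls of HSPA5, HSP90B1 and EDEM3 were lost with limma on log2(TPM + 1) (adjusted p of 0.312, 0.054 and 0.0964).

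Luspatercept added to CsA and Eltrombopag was tested directly as CEL against CE. ERO1A and DERL1 rose and EDEM2, SIL1 and XBP1 fell, none of them by 2-fold. Of 41 members, 7 rose and 6 fell, where 8.78% of all genes rose and 14.8% fell, 23.6% in either direction, and 17 did not overlap, where 34.7% of all genes did not. The medians were 0.01 over the members and -0.09 over all genes. The split was 9 higher and 4 lower with upper quartile factors, and 12 and 5 with library size alone. Among the called members, the fall of PDIA4 (0.13 ± 0.04) was lost under all 15 alternatives. The fall of DNAJC10 (0.23 ± 0.07) and the rise of SSR2 (0.19 ± 0.06) were each lost under 12 of 15.

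ERO1A had 225, 219 and 231 CPM in CEL libraries, against 155, 169 and 161 in CE libraries, with no overlap (0.48 ± 0.06, adjusted p = 0.00012). DERL1, a derlin of the degradation channel, had 195, 203 and 217 CPM in CEL and 156, 129 and 148 in CE libraries (0.50 ± 0.07, adjusted p = 0.000409). SEC61G, a subunit of the translocation channel, rose by 0.39 ± 0.08 and ATF6 by 0.31 ± 0.06. EDEM2 had 46.7, 48.2 and 53.2 CPM in CEL and 78.0, 74.5 and 68.9 in CE libraries, a fall of 0.58 ± 0.06 (adjusted p = 8.12e-05). SIL1, the nucleotide exchange factor of BiP, had 16.4, 14.3 and 15.3 CPM in CEL and 19.2, 23.2 and 20.2 in CE libraries, a fall of 0.45 ± 0.09 (adjusted p = 0.00342).

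XBP1 fell by 0.32 ± 0.05 (adjusted p = 0.00146) and EDEM3 by 0.33 ± 0.06 (adjusted p = 0.00257). The XBP1 call was lost without CE 1, CE 3, CEL 1 or CEL 2 (adjusted p of 0.0623, 0.0719, 0.0743 and 0.0689), and that of EDEM3 without CE 3, CEL 1 or CEL 2 (0.0748, 0.0675 and 0.0599). With limma on log2(TPM + 1), ERO1A was the 1 member that rose and no member fell. ATF6, SEC61G, DERL1, EDEM2, SIL1, XBP1 and EDEM3 did not pass there (adjusted p of 0.108 to 0.592). That fit took the spread of each gene from every library, NC 3 and LPS 1 included, though this comparison holds neither of them. HSPA5 (0.16 ± 0.06), HSP90B1 (-0.01 ± 0.06), DNAJB9 (-0.15 ± 0.08), HERPUD1 (0.01 ± 0.07), ERN1 (0.12 ± 0.36) and EIF2AK3 (0.18 ± 0.10) did not pass. HSPA5 passed without CE 1 (adjusted p = 0.0164) and EIF2AK3 without CE 2 (0.0201). The count of members that rose was 13 without CE 1. The count that fell was 2 without CE 3 or CEL 2 and 3 without CEL 1.

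**Figure D3:**
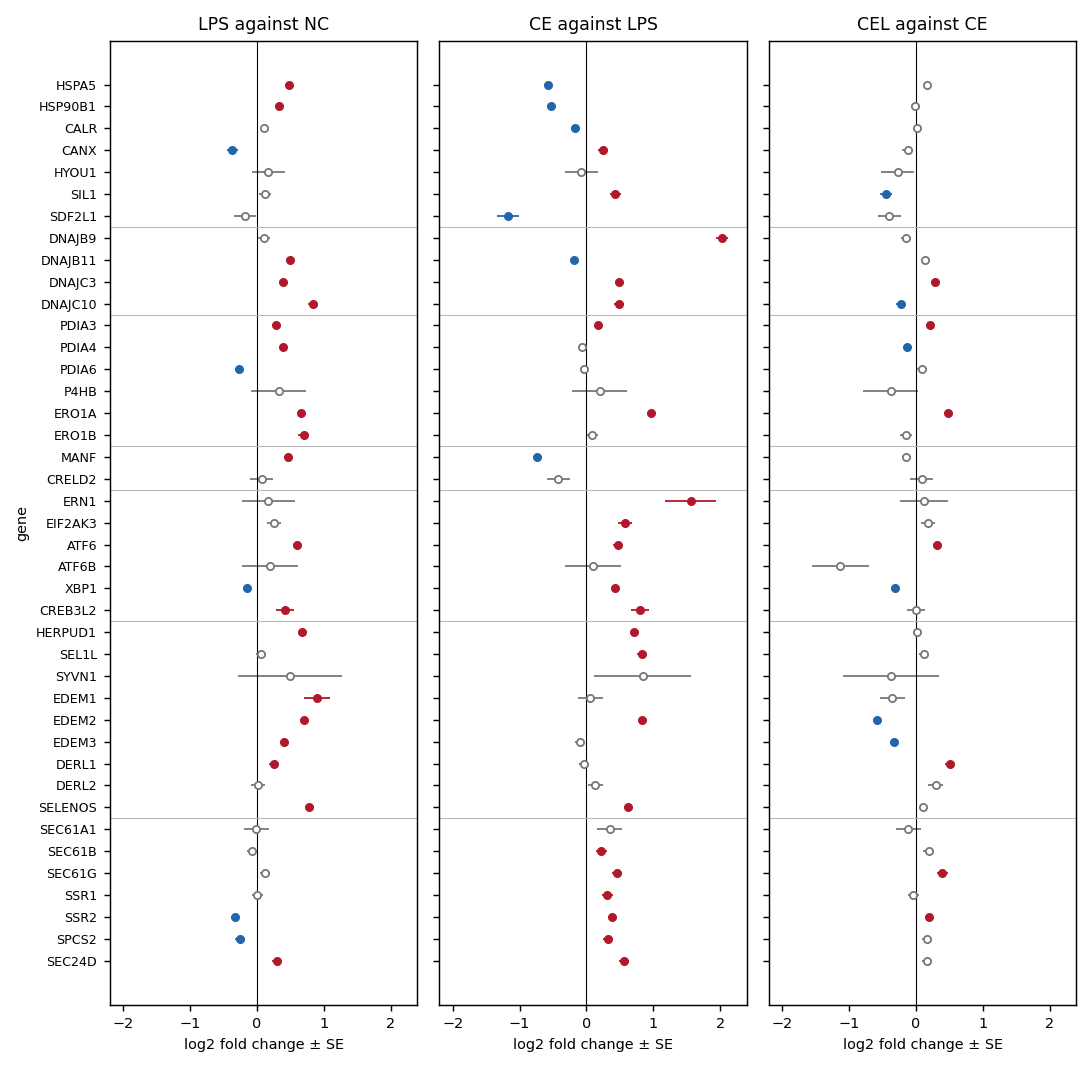
Log2 fold change of the 41 tested members in 3 comparisons, with bars of 1 approximate standard error. Filled red points rose and filled blue points fell at adjusted p under 0.05, and open points did not pass, with 24, 28 and 13 filled points from left to right.

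Treated cells were also set against untreated cells. Both comparisons share the NC libraries. In CEL, 25 of 41 members rose and 5 fell, where 34% of all genes rose and 33% fell, 67% in either direction, with medians of 0.44 over the members and 0.00 over all genes. In CE, 24 rose and 4 fell, where 34.6% and 29.4% of all genes did, 64% in either direction, with medians of 0.34 and 0.09. The groups did not overlap for 33 members in CEL against NC and 27 in CE against NC, where 75.8% and 67.1% of all genes did not. Upper quartile factors gave 18 higher and 11 lower for CEL, and 18 and 10 for CE.

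Among called members, a rise of at least 2-fold was reached by 12 in CEL and by 9 in CE. The share of all genes at that threshold was not counted, so these counts stand without a background. ERO1A rose 4.30-fold in CEL and 3.09-fold in CE, and DNAJB9 rose 3.95-fold in CEL and 4.38-fold in CE. ERN1 rose by 1.85 ± 0.38 in CEL and 1.73 ± 0.38 in CE, SELENOS by 1.51 ± 0.06 and 1.40 ± 0.06, EDEM2 by 0.96 ± 0.06 and 1.54 ± 0.06, and HERPUD1 by 1.41 ± 0.07 and 1.40 ± 0.07 on the log2 scale. ATF6 rose by 1.38 ± 0.06 in CEL and 1.07 ± 0.06 in CE, and EIF2AK3 by 1.01 ± 0.10 and 0.83 ± 0.10. SDF2L1 fell by 1.75 ± 0.17 in CEL and by 1.35 ± 0.17 in CE, and MANF fell by 0.43 ± 0.06 and 0.28 ± 0.06. With limma on log2(TPM + 1) neither MANF call was kept (adjusted p of 0.349 in CEL and 0.675 in CE), and with no filter on low counts that in CE was lost (0.124).

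HSPA5 did not pass against NC in CEL (0.07 ± 0.06) or in CE (-0.09 ± 0.06). In CE it passed as lower without CE 1 (adjusted p = 0.0328), with upper quartile factors (0.000758) and with library size alone (0.00204). XBP1 did not pass in CEL (-0.04 ± 0.05) and rose by 0.27 ± 0.05 in CE, where upper quartile factors turned it to -0.01. HSP90B1 fell by 0.21 ± 0.06 in CEL and 0.20 ± 0.06 in CE. Its CEL call was lost without NC 3, CEL 1 or CEL 2 (adjusted p of 0.144, 0.175 and 0.124) and its CE call without NC 3 or CE 2 (0.0781 and 0.0635). CANX and PDIA6 fell in CEL by 0.24 ± 0.08 and 0.22 ± 0.06, and both calls were lost without NC 3, CEL 1 or CEL 2 (adjusted p of 0.0922 to 0.195), that of CANX also without NC 1 (0.0672). PDIA6 fell in CE by 0.30 ± 0.06, a call lost with no filter on low counts (adjusted p = 0.0799) and with limma on log2(TPM + 1) (0.597). With NC 3 and LPS 1 both left out, the calls of HSP90B1 in both comparisons, of CANX and PDIA6 in CEL and of XBP1 in CE were lost (adjusted p of 0.0623 to 0.136).

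Members with and without an ERSE or ERSE-II match were described side by side. Of the 11 members with a match, 4 rose and 3 fell in LPS against NC, 3 rose and 4 fell in CE against LPS, and 1 rose and 4 fell in CEL against LPS. Over all tested genes, 22.4% rose and 23.5% fell, 28.8% and 20.7%, and 28.7% and 27.2% in these comparisons. Their median log2 changes were 0.11, -0.08 and -0.16. Of the 27 with a window but no match, 12 rose and 2 fell, 17 rose and 2 fell, and 17 rose and 3 fell in the same comparisons, with medians of 0.33, 0.43 and 0.43. In CEL against CE, where 8.78% of all genes rose and 14.8% fell, 0 of 11 rose and 1 fell among those with a match. Among those without, 5 of 27 rose and 5 fell. The match class includes HSPA5, HSP90B1 and SDF2L1, which fell in CE against LPS and also HERPUD1, CANX and XBP1, which rose. The motif classes overlap strongly with the roles, since 6 of 7 chaperones hold an ERSE or ERSE-II.

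**Figure D4:**
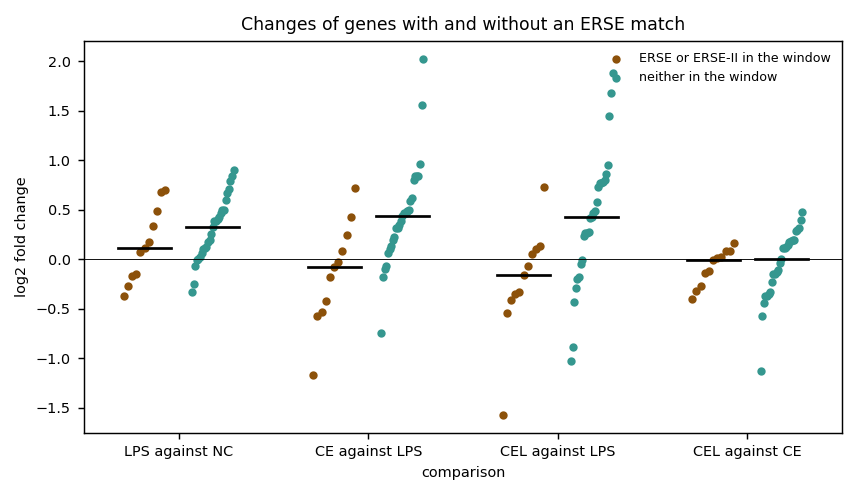
Log2 fold changes in 4 comparisons for the 11 members with an ERSE or ERSE-II match in the promoter window (brown) and the 27 with a window and no match (green), each point a gene and each line a median. In CE against LPS the medians are -0.08 and 0.43, and both classes hold genes on either side of 0.

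Other genes of these pathways were taken from 7 lists of 101 genes. Their counts stand against shares of all tested genes of 22.4% higher and 23.5% lower in LPS against NC, 28.8% and 20.7% in CE against LPS, 28.7% and 27.2% in CEL against LPS, and 8.78% and 14.8% in CEL against CE. Of 8 tested outputs of PERK and the integrated stress response, 4 rose and 2 fell in LPS against NC, 5 rose and 0 fell in CE against LPS and in CEL against LPS, and 2 rose and 1 fell in CEL against CE. ATF3, a stress-induced factor, averaged 49.5 ± 1.56 CPM in CEL, 33.4 ± 0.85 in CE, 11.2 ± 0.844 in LPS and 1.58 ± 0.305 in NC libraries. Its log2 change was 2.81 ± 0.11 in LPS against NC and 0.57 ± 0.09 in CEL against CE. ASNS, which makes asparagine and is an ATF4 target, averaged 124 ± 3.99 CPM in CEL, 177 ± 14.8 in CE, 40.6 ± 3.52 in LPS and 84.7 ± 3.05 in NC libraries. It fell in LPS against NC (-1.06 ± 0.07), rose in CE against LPS (2.13 ± 0.08) and fell in CEL against CE (-0.52 ± 0.07). DDIT3 (CHOP), the factor downstream of ATF4, rose by 1.61 ± 0.09 and ATF4 by 0.60 ± 0.04 in CE against LPS.

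Of 17 genes of COPII export and KDEL retrieval, 5 rose and 2 fell in LPS against NC, 12 rose and 3 fell in CE against LPS, and 3 rose and 0 fell in CEL against CE. SEC24A, a COPII cargo adaptor, averaged 131 ± 7.63 CPM in CEL, 100.1 ± 2.78 in CE, 58.0 ± 3.53 in LPS and 34.8 ± 0.753 in NC libraries, and it rose in all 3 comparisons (0.39 ± 0.06 in CEL against CE, 0.79 ± 0.06 in CE against LPS, 0.74 ± 0.06 in LPS against NC). Of 16 other folding and disulfide enzymes, 5 rose and 5 fell in LPS against NC, 7 rose and 5 fell in CE against LPS, and 0 rose and 4 fell in CEL against CE. ERP29, a lumenal folding factor, fell by 1.69 ± 0.05 in LPS against NC, to 112 ± 2.98 CPM in LPS, against 361 ± 10.7 in NC libraries. ERP44, which retains ERO1 in the early secretory pathway, rose in LPS against NC (0.48 ± 0.06) and in CE against LPS (0.68 ± 0.06).

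Of 11 glycosylation genes, 1 rose and 6 fell in LPS against NC, 3 rose and 0 fell in CE against LPS, and 0 rose and 3 fell in CEL against CE. DDOST, a subunit of the oligosaccharyl transferase, fell by 0.47 ± 0.04 in LPS against NC and by 0.29 ± 0.04 in CEL against CE. Of 17 other degradation genes, 5 rose and 3 fell in LPS against NC, 6 rose and 4 fell in CE against LPS, and 3 rose and 0 fell in CEL against CE, and the first 2 of these counts lie near the shares of all genes. VCP, the ATPase that pulls substrates out of the membrane, fell by 0.49 ± 0.04 in CE against LPS and rose by 0.16 ± 0.04 in CEL against CE. Of 14 other translocation genes, 4 rose and 5 fell, 7 rose and 2 fell, and 3 rose and 1 fell in the same comparisons. SPCS3, a signal peptidase subunit, fell by 0.57 ± 0.07 in CE against LPS and by 0.24 ± 0.07 in CEL against CE.

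Of 13 tested other stress transducers, 5 rose and 4 fell in LPS against NC, 4 rose and 3 fell in CE against LPS, and 2 rose and 2 fell in CEL against CE. NFYA, a subunit of the factor that binds the CCAAT box of ERSE, averaged 122 ± 6.39 CPM in CEL, 88.4 ± 1.76 in CE, 151 ± 1.06 in LPS and 156 ± 3.3 in NC libraries. It fell by 0.77 ± 0.04 in CE against LPS and rose by 0.47 ± 0.04 in CEL against CE. CREB3, a membrane-bound relative of ATF6, averaged 29.6 ± 0.125 CPM in CEL, 24.0 ± 1.85 in CE, 17.8 ± 0.289 in LPS and 10.2 ± 0.823 in NC libraries.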

How the data were processed

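RNA was captured with oligo-dT beads, per the labels' protocols. The authors deposited estimated counts, TPM and FPKM per gene. The FPKM table, deposited by the authors, served only to check the library totals. Of the deposited nonzero estimated counts, 29.3% were not whole within 0.005, and they were rounded. The build was hg38, per the submitters' processing notes. For the aligner, counter, strand setting and annotation, the value is not given in the sources used here. Pseudogene copies named for PDIA3 and SPCS2 held at most 1.49% and 2.15% of the parent gene's counts. The columns of CE were matched as the remaining group, so every CE value rests on that.

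The 12 libraries were fitted together in edgeR 4.0.16 (TMM, filterByExpr over 4 groups, quasi-likelihood F-test, two-sided, Benjamini-Hochberg over 14065 genes). Standard errors are approximate, taken as the change over the root of F. The biological coefficient of variation was 20.13%. Nothing says that replicates were separate cultures, so the p-values reflect just the spread among these samples. Alternatives used DESeq2 1.42.0 and limma 3.58.1, R 4.3.3 throughout. The fit was tested on simulated data. No pair of libraries held identical values. Promoter sequences are RefSeq's, and 4 members had no entry.

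Named members are the 4 largest rises and 4 largest falls among called members without overlap in each comparison, with HSPA5, HSP90B1, DNAJB9, HERPUD1, XBP1, ERN1, EIF2AK3 and ATF6. Listed genes are up to 3 per list by smallest p, and others were chosen after their values were seen. The members and lists were chosen with earlier results of these data known.

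In the labels, batch and replicate share their number, and the pairing comes from there. Over 7460 genes, 6 of 18 same-numbered pairs had deviations correlated above 0.1 (range -0.86 to 0.73, median -0.186), and 1 of 12 libraries correlated best with its own number.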

Additional observations from a re-analysis of the deposited data

How the results depend on the processing

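Counts of changed members moved by more than 1.5 times as follows, with the full count in brackets. With limma on log2(TPM + 1), and equally with a pseudocount of 0.1, the members that fell numbered 2 in CEL against LPS (7), 1 in CEL against NC (5), 0 in CEL against CE (6), 3 in CE against LPS (6), 1 in CE against NC (4) and 0 in LPS against NC (5), and those that rose numbered 11 in CE against LPS (22) and 1 in CEL against CE (7). With no filter on low counts, 3 fell in CEL against NC, 1 in CE against NC and 0 in LPS against NC, and 2 rose in CEL against CE. Upper quartile factors gave 11 lower in CEL against NC, 11 in CE against LPS and 10 in CE against NC. Library size alone gave 8 lower in CEL against NC, 11 in CE against LPS and 8 in CE against NC, and 12 higher in CEL against CE. RLE factors gave 2 lower in CEL against NC and 3 in LPS against NC. With only the 2 groups in the fit, 4 rose and 2 fell in CEL against CE. Leaving out NC 3 and LPS 1, an alternative added after seeing the data, gave 2 lower in CEL against NC and 2 in LPS against NC. The cause of these moves was not tested. DESeq2 moved none of the 12 counts by more than 1.5 times.

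Leaving out 1 library gave 18 to 19 members higher and 3 to 4 lower in LPS against NC, 18 to 22 and 5 to 9 in CE against LPS, 20 to 21 and 5 to 7 in CEL against LPS, 6 to 13 and 2 to 6 in CEL against CE, 22 to 27 and 3 to 5 in CE against NC, and 24 to 25 and 2 to 5 in CEL against NC. The lowest counts of members that fell came without NC 1, NC 3 or LPS 3 in LPS against NC, and without NC 3, CEL 1 or CEL 2 in CEL against NC.

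With the replicate block, 19 members rose and 4 fell in LPS against NC, 21 and 6 in CE against LPS, 21 and 7 in CEL against LPS, 6 and 4 in CEL against CE, 24 and 4 in CE against NC, and 25 and 5 in CEL against NC. The block lost the calls of XBP1 in LPS against NC, of SEC61B in CE against LPS, and of DNAJC10, PDIA4 and SSR2 in CEL against CE.

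Among called members, and for HSPA5 where an alternative called it, directions turned in CEL against NC with upper quartile factors for HSPA5 (-0.18, adjusted p = 0.0491), PDIA4 (-0.07), SSR2 (-0.003) and SPCS2 (-0.02), and with limma on log2(TPM + 1) and log2(TPM + 0.1) for CANX (0.0612 and 0.0613), PDIA6 (0.0323 and 0.0325) and HSP90B1 (0.0353 and 0.0353). In CE against NC, XBP1 turned to -0.0095 and DERL1 to -0.07 with upper quartile factors. HSPA5 in CEL against NC, which did not pass, also turned with library size alone. Upper quartile factors shifted the median of all genes by -0.29 in CE against NC, -0.25 in CEL against NC, -0.17 in CE against LPS, -0.14 in CEL against LPS and -0.11 in LPS against NC. Library size alone shifted it by -0.16, -0.12, -0.15 and -0.11 in the first 4 of these. Over all tested genes, limma on log2(TPM + 1) gave 2070 higher and 893 lower in LPS against NC, 2242 and 1344 in CE against LPS, and 109 and 157 in CEL against CE, where edgeR gave 3152 and 3306, 4057 and 2915, and 1235 and 2086. DERL3 had 0 to 17 estimated counts per library and was not tested.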
